A study of Mus musculus with 6 samples.

Results

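The Schlafen family was followed in an acute myeloid leukaemia line of the mouse, described as PU.1low URE-/-, after exposure to DB2313, a small molecule that acts as an inhibitor of the ETS transcription factor PU.1. Members were chosen by gene name, as the probe sets (rows) of the deposited table annotated with exactly 1 symbol among Slfn1, Slfn2, Slfn3, Slfn4, Slfn5, Slfn8, Slfn9, Slfn14 and Slfnl1. Of these 9 genes, 8 had such a row, each had 1, and they stand among 22180 genes tested. Slfn9 had no row of its own. The family was proposed because Slfn2 was already known to differ from its paralogues in these arrays, so the differences of the members between DB2313 and vehicle are given as a description, without a test.

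The line came out of a mouse that had developed leukaemia and lacked the URE, an enhancer upstream of Spi1, the gene of PU.1. Both groups carry that deletion, and the label calls the line low in PU.1, which no array without the deletion allows to be checked here. The DB2313 group (3 arrays) received the compound at 330 nM, and the vehicle group (3 arrays) received the same volume of water. RNA was taken after 24 h in both. The arrays are labelled as biological replicates of 1 line, and nothing says whether they came from separate cultures, so errors and p-values cover only the spread among these arrays, which may be technical.

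Schlafen proteins share an N-terminal core domain that in several members binds or cuts transfer RNA and ribosomal RNA. In the mouse they fall into short members (Slfn1 and Slfn2), intermediate members (Slfn3 and Slfn4) and long members that add a helicase-like C-terminal region (Slfn5, Slfn8, Slfn9 and Slfn14). Several are induced by interferon and change during the development of T cells and macrophages. Slfn2 is best known for holding T cells and monocytes in quiescence, a role shown by a mouse strain with a mutated Slfn2.

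Across the whole table, array medians lay between 4.77 and 4.82 (log2 signal), and the limma fit over all genes called 401 genes at an adjusted p under 0.05, or 136 to 187 when 1 array was omitted, with the lowest count without DB2313 replicate 3. Without adjustment, 12.7% of all genes had a p under 0.05, the share against which the unadjusted counts of the gene lists can be read. The mean signal of Spi1 itself was 6.87 with vehicle and 6.50 with the compound (log2, SDs of 0.08 and 0.01, n = 3), giving a difference of -0.37 (DB2313 minus vehicle, SE 0.06, limma adjusted p = 0.0342), a call that did not survive the removal of any single array (adjusted p between 0.0648 and 0.134). Of 12 markers of the labelled cell type, 10 had a signal above the median of gene means, 5.17, which is only a rough guide because levels of different probe sets are not comparable. Ptprc, a pan-leukocyte marker, lay below the 25th percentile of gene means, 3.89 (3.32 in vehicle, 3.31 with DB2313), and Cd34, a progenitor marker, was also below the median (4.59 and 4.63). None of the 10 measured T cell or 6 measured B cell markers reached the median signal.

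Slfn2 was the member that differed most. Its signal was 6.57, 6.40 and 6.71 on the vehicle arrays and 4.997, 4.90 and 4.90 on the DB2313 arrays (log2). All 3 DB2313 arrays lay below all 3 vehicle arrays, and the gap between the groups was far wider than the spread within either. The means were 6.56 ± 0.16 and 4.93 ± 0.06 (log2, SD, n = 3), a difference of -1.63 (SE 0.09, 95% interval -1.83 to -1.42), or 3.09-fold lower with DB2313. On the linear scale the vehicle arrays read 95.3, 84.2 and 104 units and the DB2313 arrays 31.9, 29.9 and 29.9. The vehicle mean stood above the median of all gene means, 5.17, and the DB2313 mean below it. No background value was used here for any row. With an offset of 32 added on the linear scale, which damps dim signals, the difference was -1.01. Leaving out any 1 array kept it between -1.71 and -1.55.

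In this bulk measurement, fewer cells that express a gene and less RNA per cell cannot be told apart. Slfn2 was the only member past the adjusted p of 0.05 in the fit over all genes, 1 of 8, where 1.81% of all genes tested passed, 0.789% as lower and 1.02% as higher with DB2313. It was also the only member whose groups did not overlap, which 19.3% of all genes shared. Since this contrast led to the choice of the family, nothing is read from these counts.

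**Figure D1:**
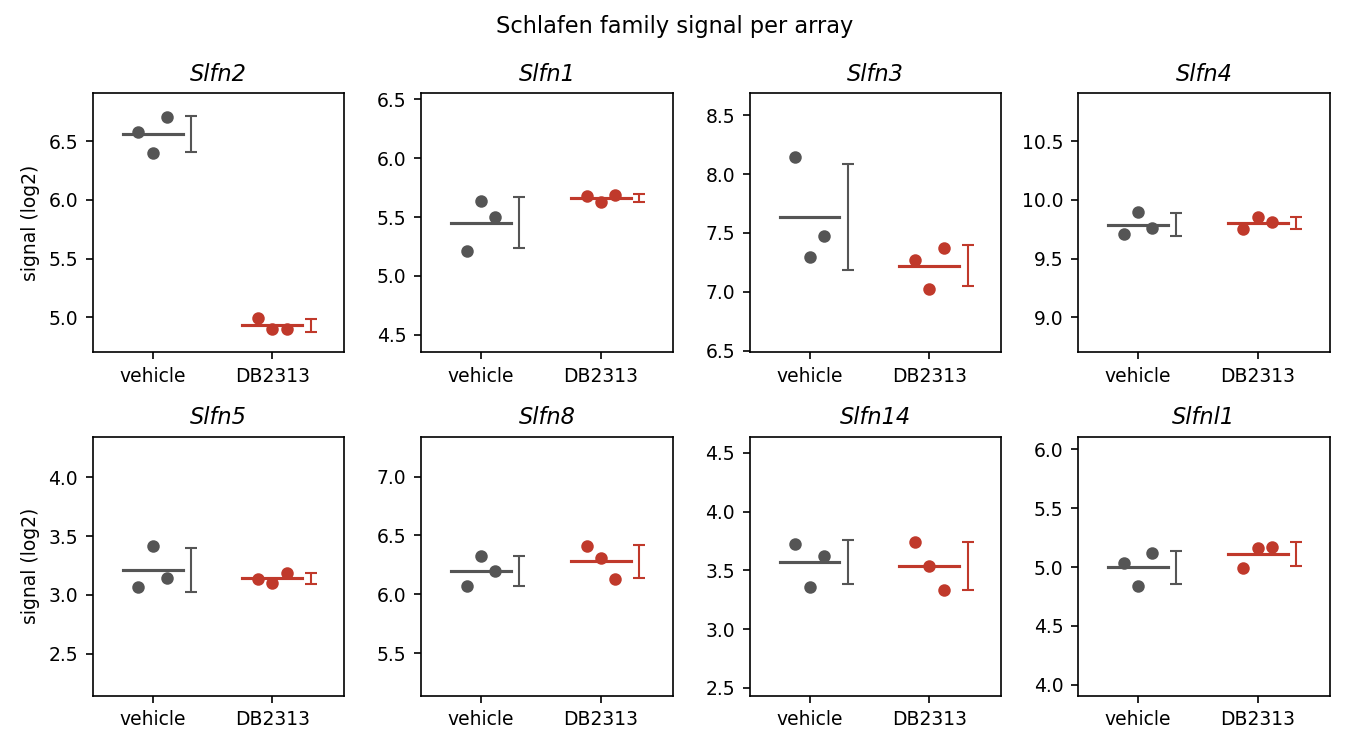
Signal (log2, y axis) of each measured Schlafen gene on the 3 vehicle and 3 DB2313 arrays; points are arrays, horizontal lines group means, and bars 1 SD. All panels span the same log2 range, but levels are not comparable between genes; the Slfn2 groups are separate (6.40 to 6.71 against 4.90 to 4.997) and the groups of the other 7 genes overlap.

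The bases before the transcription start of Slfn2 are shown because the compound targets an ETS factor and because these letters hold an ETS-type match that the next 3 members on 1 side share. The sequence is from RefSeq, assembly GRCm38.p6, chr11:83064862-83065111 on the plus strand, and covers 250 bases, ending just before the start. Capitals mark the 9-letter run CCAGGAAGT, which reads ACTTCCTGG on the strand of the gene.

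Slfn2: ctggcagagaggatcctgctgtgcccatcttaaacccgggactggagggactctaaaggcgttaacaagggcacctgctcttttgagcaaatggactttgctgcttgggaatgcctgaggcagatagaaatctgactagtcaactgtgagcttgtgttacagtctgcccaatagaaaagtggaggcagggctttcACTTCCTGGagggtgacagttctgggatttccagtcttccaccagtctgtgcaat

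The first base of that run lies 55 bases before the start of Slfn2. The run was also found before the starts of Slfn1 (74 bases), Slfn4 (73 bases) and Slfn3 (42 bases), the next 3 members after Slfn2 along the chromosome. It was not found for Slfn14, which follows them, or for Slfn5, Slfn8, Slfn9 and Slfnl1. The stretches below are shown so that the shared run can be compared among genes whose differences were of unlike size; they extend 20 bases on each side, on the plus strand, at chr11:83116726-83116774 for Slfn1, chr11:83065037-83065085 for Slfn2, chr11:83191268-83191316 for Slfn3 and chr11:83175093-83175141 for Slfn4.
Slfn1: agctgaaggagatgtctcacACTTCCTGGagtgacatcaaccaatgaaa
Slfn2: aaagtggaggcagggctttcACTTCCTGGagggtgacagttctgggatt
Slfn3: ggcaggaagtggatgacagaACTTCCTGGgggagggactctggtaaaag
Slfn4: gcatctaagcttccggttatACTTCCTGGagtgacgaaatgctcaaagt

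The run CCAGGAAGT, searched on both strands, was present in 0.843% of 32851 RefSeq promoter windows of 300 bases (250 before to 50 after a start), and in 4 of the 10 windows of the 9 members. The shorter AGGAAGT, which it contains, was in 9.35% of all windows and in the same 4 members, with a further copy before Slfn3. Both strings were chosen after the member promoters had been read, so their presence is a description. The 4 genes are successive members of 1 family along the chromosome, so their matches cannot be counted as 4 independent ones. The purine-rich GAGGAAGT, a form typical of PU.1, was in none of the member windows and in 3.20% of all windows. The shorter GAGGAA was found for Slfn9 and Slfn14 and in 28.3% of all windows, and the bare core GGAA, contained in all of these, for all 9 members and in 96.0% of windows. A match in letters is not evidence of binding.

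Slfn1, the other short member, which slows the growth of thymocytes when overexpressed, had a signal of 5.21, 5.64 and 5.50 in vehicle and 5.68, 5.63 and 5.69 with DB2313 (log2). The DB2313 values were tightly grouped near the upper vehicle values, and the groups overlapped by a narrow margin. The difference was 0.21 (SE 0.11, 95% interval -0.04 to 0.46), opposite in sign to that of Slfn2. Without vehicle replicate 1, the lowest of the 6 arrays, it was 0.09.

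Slfn3, an intermediate member known from differentiating intestinal epithelium and T cells, read 8.15, 7.29 and 7.48 in vehicle and 7.27, 7.03 and 7.37 with DB2313 (log2). Vehicle replicate 1 stood well above the other 5 arrays, and the rest of the values intermixed. Its difference of -0.42 (SE 0.21) was the lowest after that of Slfn2, with a 95% interval from -0.90 to 0.07, and it was -0.16 without vehicle replicate 1.

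Slfn4, the other intermediate member, which is induced by interferon and Toll-like receptor ligands in macrophages, read 9.71, 9.90 and 9.76 in vehicle and 9.75, 9.85 and 9.81 with DB2313 (log2). The 6 arrays lay within a narrow band and the groups were intermixed. The difference was 0.02 (SE 0.07), and its 95% interval, -0.15 to 0.18, was the narrowest among the members. A fall of the size seen for Slfn2 lies far outside that interval, a description only, since this contrast led to the choice of the family.

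Among the long members, Slfn8 read 6.07, 6.32 and 6.20 in vehicle and 6.41, 6.31 and 6.13 with DB2313 (log2), a difference of 0.08 (SE 0.10, 95% interval -0.14 to 0.31). The highest value belonged to DB2313 replicate 1 and the lowest to vehicle replicate 1, and the groups overlapped. A row annotated to both Slfn8 and Slfn9 read 7.16, 7.00 and 7.00 in vehicle and 7.01, 7.25 and 7.24 with DB2313. Its groups overlapped as well, with a difference of 0.11, and it cannot be assigned to either gene.

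Slfn5, an interferon-induced nuclear member, read 3.06, 3.42 and 3.14 in vehicle and 3.13, 3.10 and 3.19 with DB2313 (log2). Slfn14, a ribosome-associated RNA endonuclease known from platelets and red cell precursors, read 3.72, 3.36 and 3.62 in vehicle and 3.74, 3.54 and 3.33 with DB2313. Both rows lay below the 25th percentile of gene means, where a change of expression could go unseen. Their differences were -0.07 (95% interval -0.30 to 0.16) and -0.03 (95% interval -0.33 to 0.27). Leaving out 1 array turned the sign of the difference for Slfn5 (0.03 without vehicle replicate 2), for Slfn14 (up to 0.07 without DB2313 replicate 3) and for Slfn4 (down to -0.02 without vehicle replicate 1).

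Slfnl1, a Schlafen-like gene on chromosome 4 apart from the others, read 5.04, 4.84 and 5.12 in vehicle and 4.99, 5.16 and 5.17 with DB2313 (log2). The groups overlapped, and the difference was 0.11 (SE 0.09, 95% interval -0.10 to 0.32).

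Set against its paralogues, Slfn2 thus stood apart in size. The differences of the other 7 members ran from -0.42 for Slfn3 to 0.21 for Slfn1, with a median of 0.02, beside a median of -0.0024 over all genes tested. The difference of Slfn2 was 1.21 lower on the log2 scale than that of Slfn3 and 1.84 lower than that of Slfn1. The upper end of its 95% interval, -1.42, lay below the lowest end of any paralogue's interval, -0.90. These contrasts of differences were not tested. Since this contrast led to the choice of the family, nothing is read from the gap between the intervals. Probe sequences were not used here, and short probes can be shared among similar family members.

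**Figure D2:**
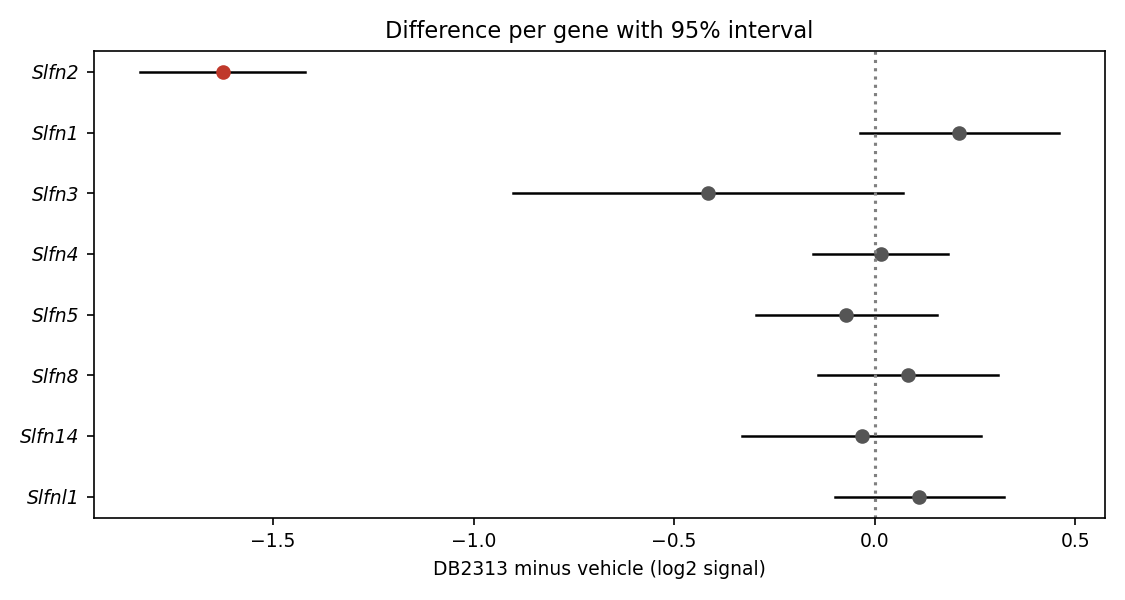
Difference between the group means (DB2313 minus vehicle, log2 signal, x axis) for the 8 measured Schlafen genes; points are limma estimates and lines 95% intervals over 3 arrays per group. The interval of Slfn2 runs from -1.83 to -1.42, and those of the other genes lie between -0.90 and 0.46. The members were not tested, since this contrast led to the choice of the family.

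Of the 9 genes, 8 lie in 1 run on chromosome 11, in the order Slfn5, Slfn9, Slfn8, Slfn2, Slfn1, Slfn4, Slfn3 and Slfn14, with the pseudogene Slfn10-ps between Slfn8 and Slfn2. The genes around and within the run were therefore set beside Slfn2: the measured ones among the 10 named protein-coding genes on each side, and any other gene with a row of its own inside. None of these 21 genes passed in limma, where 1.81% of all genes did (3 had an unadjusted p under 0.05, against 12.7% of all genes), and their differences ran from -0.20 to 0.76 with a median of 0.03. At most 1 passed under any other setting, either with a trended and robust prior or after dropping genes under the median signal. Over all genes, 920 passed with that prior and 799 after that filter.

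The measured genes next to Slfn2 on either side had differences above 0. Slfn10-ps went from 3.96 ± 0.18 in vehicle to 4.20 ± 0.06 (log2, SD, n = 3), a difference of 0.24 (limma adjusted p = 0.362), and on the other side stands Slfn1 with 0.21. The largest difference in the neighbourhood was that of Ccl6, a chemokine gene of myeloid cells, at 6.82 ± 0.36 and 7.57 ± 0.17 (0.76, limma adjusted p = 0.101). Genes directly before the run, such as Unc45b, a myosin chaperone (-0.0018), and Nle1, a ribosome assembly factor (0.04), were chosen for their position, outside the rule for named genes, and had limma adjusted p of 0.995 and 0.836.

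**Figure D3:**
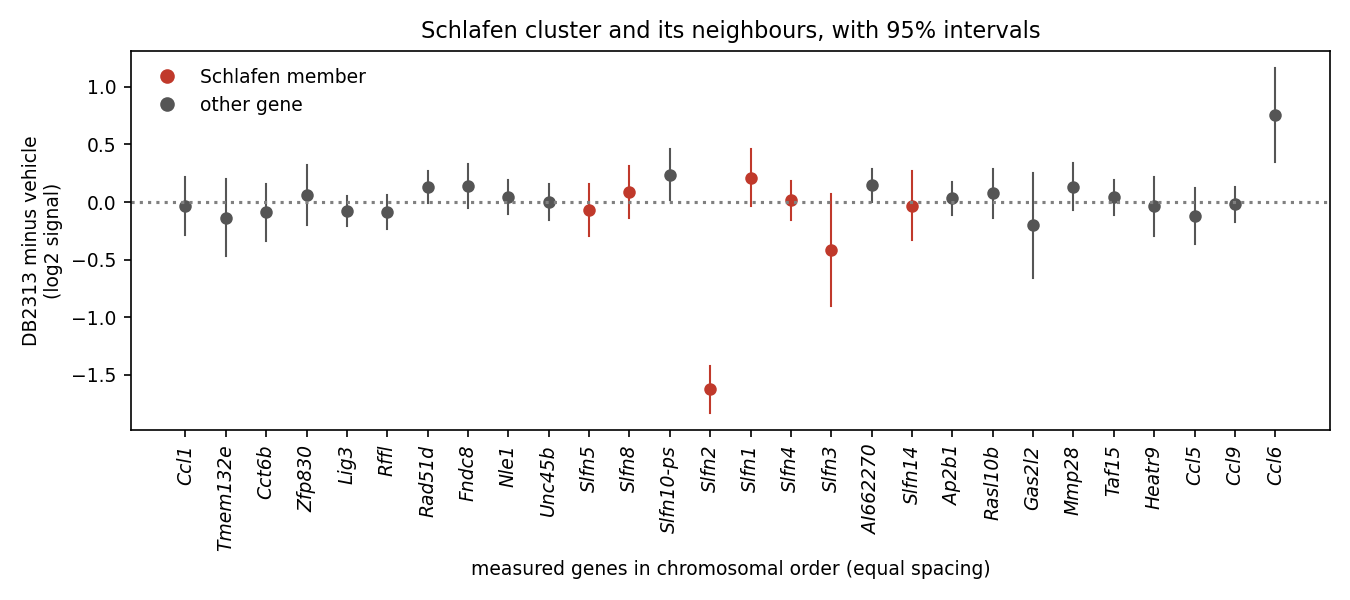
Difference between DB2313 and vehicle (log2 signal, y axis) for the measured genes of the Schlafen run and its surroundings on chromosome 11, in chromosomal order with equal spacing on the x axis; points are limma estimates, lines 95% intervals, and the Schlafen members are in red. Slfn2, at -1.63, is far below every other gene shown, the next lowest being Slfn3 at -0.42.

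Interferon induces several Schlafen genes, so genes induced by interferon and genes of its signal chain were listed beside them. Of 50 interferon-induced genes, 43 were measured and none passed in limma (7 had an unadjusted p under 0.05, where 12.7% of all genes did), with 25 above 0, 18 below and a median difference of 0.02. The smallest p-values belonged to GTPase genes: Gbp3 was 0.36 higher (limma adjusted p = 0.110) and Iigp1 0.35 higher (limma adjusted p = 0.114), and neither passed. Iigp1 was a dim row (2.88 in vehicle, 3.23 with DB2313), below the 25th percentile of gene means, 3.89. Up to 2 members passed under other settings, with an offset of 32 or a trended and robust prior. Of all 22180 genes, 830 and 920 passed under these 2 settings. Among 20 measured genes of the signal chain, Socs3, a feedback inhibitor of cytokine receptors, fell by 0.56 (SE 0.09, limma adjusted p = 0.0250). The other 19 did not pass, so that 5% were called where 1.81% of all genes were. In this list 4 had an unadjusted p under 0.05, where 12.7% of all genes did. Up to 2 of the list passed with the same offset or prior, or after dropping genes under the median signal. After that filter 799 of all genes passed. Socs3 no longer passed on removing any single array (adjusted p between 0.0579 and 0.109) or on averaging its rows. With every row tested separately, Socs3 had a row that did not pass, while 1 gene of the chain still passed.

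Windows of 3 of the 4 long members, not Slfn14, carried letters of the interferon response type. The pattern of GAAA, any 2 bases and GAAA again, on both strands, was found for Slfn5, Slfn8 and Slfn9, against 3.44% of all windows, and for none of the other 6 members, Slfn2 included. The Slfn5 match runs into a stretch of a, and the Slfn8 and Slfn9 matches lie in similar windows. They cannot be counted as 3 independent matches. The STAT-type pattern TTCNNNGAA was in no member window and in 8.30% of all windows. The matches are shown in capitals with their surroundings because Slfn8 and Slfn9, which share a row on the array, are also close in sequence here: their windows were 80.5% identical over the aligned columns, against a median of 46.2% over the 36 pairs of members. RefSeq, GRCm38.p6, gives chr11:82951927-82951976 on the plus strand for Slfn5, and, on the minus strand, chr11:83020829-83020878 for Slfn8 and chr11:82991846-82991895 for Slfn9; the 2 windows of Slfn8 overlap and hold the same match.
Slfn5: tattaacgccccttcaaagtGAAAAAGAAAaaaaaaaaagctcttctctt
Slfn8: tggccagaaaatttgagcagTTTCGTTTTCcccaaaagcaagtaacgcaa
Slfn9: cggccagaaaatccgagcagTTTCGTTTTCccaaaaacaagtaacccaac

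Genes with the known role of Slfn2, holding blood cells out of the cell cycle, gave 1 call in limma among 29 measured. This was 3.45%, where 1.81% of all genes passed, and a single call is no result about the list. Of the 29, 6 had an unadjusted p under 0.05, where 12.7% of all genes did. Vsir, a checkpoint receptor (VISTA) that keeps T cells quiescent, fell by 0.52 (SE 0.07, limma adjusted p = 0.0157), from 10.12 to 9.60. Of the 6 fits that each omit 1 array, 4 did not call it (largest adjusted p 0.0666). Next by p-value and chosen after their values were seen, the cyclin-dependent kinase inhibitor genes Cdkn2c (-0.39) and Cdkn1a (-0.50) had limma adjusted p of 0.0774 and 0.0776. Klf6 (-0.41, limma adjusted p = 0.0797) followed closely. After it came Tsc2, which went the other way (0.31, limma adjusted p = 0.107). The list as a whole had a median of -0.02, with 17 members below 0 and 12 above. Up to 6 of its 29 measured members passed under other settings. That count was reached with an offset of 32, where 830 of all 22180 genes passed. It was also reached with a trended and robust prior, where 920 did.

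For transfer RNA, the substrate of several Schlafen proteins, 31 genes that cut, modify or mature it were listed and 24 measured. None passed in limma (3 had an unadjusted p under 0.05, where 12.7% of all genes did), also under every other setting run, and the median difference was -0.0026. Pop1, a subunit of the RNA-cleaving ribonuclease P complex, had -0.23 (limma adjusted p = 0.210) and Trdmt1, a tRNA methyltransferase, -0.20 (limma adjusted p = 0.292).

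**Figure D4:**
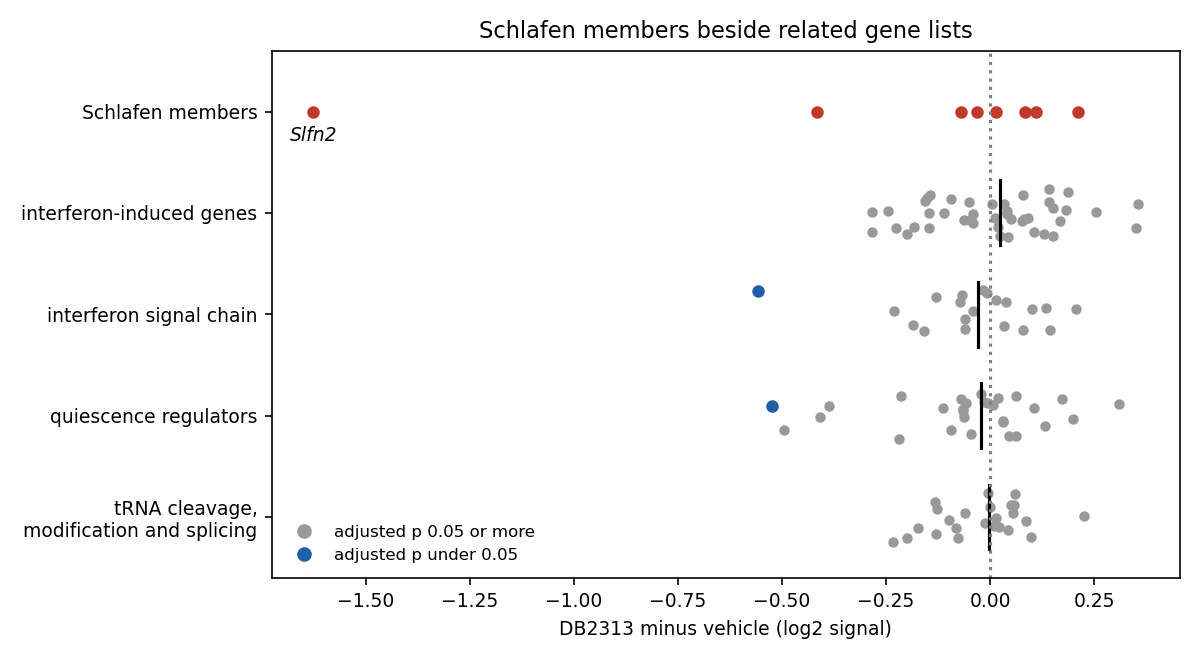
Difference between DB2313 and vehicle (log2 signal, x axis) of the 8 measured Schlafen genes (red) and of the 4 related gene lists; each point is a gene, placed with random vertical scatter, blue points passed an adjusted p of 0.05 and black lines are list medians. No listed gene lies near Slfn2 at -1.63; the lowest are Socs3 at -0.56 and Vsir at -0.52.

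The genes whose values over the 6 arrays were most like those of Slfn2 were sought among the 279 others with a difference of at least 0.5 in size. They were C5ar1, a complement receptor (Pearson's r 0.998), Thbs1, encoding thrombospondin (0.996), Pstpip2, encoding an adaptor of the actin skeleton in macrophages (0.995), Olfm4, a granule glycoprotein gene (0.994), and Ptafr, the receptor of platelet-activating factor (0.991). C5ar1 read 6.35, 6.14 and 6.68 in vehicle and 4.62, 4.39 and 4.42 with DB2313 (log2), so its arrays took the same order as those of Slfn2 within the vehicle group. Their differences ran from -0.54 for Olfm4 to -1.91 for C5ar1, a direction that follows from how they were chosen. The 6 points share 2 treatment groups, so such a coefficient mostly follows the group difference.

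Markers of cell types in which Schlafen genes are known were also read. Of all 22180 genes, 1.81% passed in limma, 12.7% had an unadjusted p under 0.05, and 11281 had a difference below 0. The mean over 10 measured T cell markers ran from 4.31 to 4.45 on the vehicle arrays and from 4.23 to 4.41 on the DB2313 arrays (log2), and none passed in limma (1 had an unadjusted p under 0.05). Of 10 megakaryocyte markers 7 were measured, and none of these lay above the median signal. With 6 below 0 and 1 above, none of the 7 passed. An unadjusted p under 0.05 was found for 2, Gp6 (-0.48) and Gp9 (-0.27). The array means were 4.56 to 4.68 in vehicle and 4.46 to 4.51 with DB2313. Of 9 erythroid markers 5 were measured, and 1 of these lay above the median signal. All 5 were below 0 and none passed (1 had an unadjusted p under 0.05), with array means of 4.91 to 5.02 and 4.77 to 4.90. Of 6 B cell markers none passed (0 had an unadjusted p under 0.05). Of 8 stromal and endothelial markers, 4 were below 0 and 4 above, with a median of 0.03 (2 had an unadjusted p under 0.05). Cdh5, an endothelial cadherin, rose by 0.86 (limma adjusted p = 0.00222), so that 12.5% of this list were called where 1.81% of all genes were. A single call is no result about the list. The other 7 did not pass, among them the endothelial genes Pecam1 (0.11) and Kdr (-0.01). The part of these markers in the Slfn2 difference was not tested.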

How the data were processed

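RNA of 6 samples, 3 per group, was hybridised to Affymetrix arrays. The authors deposited 1 log2 signal per probe set and array, made with Affymetrix Expression Console per the submitters' processing notes, with version, background correction and summarization not given in the sources used here. Both the log2 scale and a common normalization were inferred from the range and nearly equal array medians. Of 41345 rows, 23521 had 1 gene symbol in the platform annotation; rows with several (1814) or none (16010) were not tested. The brightest row stood for a gene, leaving 22180 genes. These were fitted with limma 3.58.1 in R 4.3.3 (lmFit, eBayes, 2-sided, Benjamini-Hochberg at 0.05 over all genes). The fit was checked only on data simulated from its own model, which cannot show whether that model suits these arrays. Precision is limited by the number of arrays. Members, lists and motifs were chosen with earlier results of these data known. Named beside the members and Spi1 were up to 3 called genes per list, or the 2 with the smallest p, likewise for neighbours, and the 5 genes most like Slfn2; exceptions are stated. Promoter windows, names and gene order came from RefSeq tables of GRCm38.p6, and the probe sets carry no stated build. Promoters were aligned with Biopython 1.88 (global alignment). Alternatives were 2 filters on signal, an offset of 32, median centring, quantile normalization, another prior, a replicate block, other treatments of rows, and each array left out.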

Additional observations from a re-analysis of the deposited data

How the results depend on the processing

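The difference of Slfn2 stayed between -1.71 and -1.55 with any 1 array left out, was -1.63 after quantile normalization or median centring, and was -1.01 when 32 was added on the linear scale. In each setting run 1 Schlafen gene, Slfn2, was past the threshold, from which nothing is read, since this contrast chose the family. The count over all genes went from 401 to 799 after dropping genes under the median signal, 830 with the offset, 920 with a trended and robust prior, and between 136 and 187 with 1 array left out; the cause was not tested. The labels give both groups replicate numbers 1 to 3, but the deviations of same-numbered arrays correlated at 0.023, 0.078 and 0.0083 across genes, so the numbers were not taken to pair the samples; with the replicate block 190 genes passed, Spi1 did not (limma adjusted p = 0.113), and 2 of the 3 vehicle arrays correlated best with their own number. The dim rows of Slfn5 and Slfn14 limit what could be seen, and scanner background was not used here.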

Other observations

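A row annotated to both Slfn5 and its antisense transcript Slfn5os, which stands in no comparison, read 3.61, 3.94 and 4.02 in vehicle and 4.22, 3.80 and 3.82 with DB2313 (log2); the groups overlapped, as they did for the row of Slfn5 alone.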
